A study of Homo sapiens with 12 samples.

Results

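Untreated cultures of 2 human hepatocellular carcinoma lines, PLC/PRF/5 and SNU475, were compared across all genes. The comparison takes every library of these lines whose treatment label is control, 2 for PLC/PRF/5 and 2 for SNU475, which makes 4 of the 12 libraries in the series. The other 8 libraries are untreated HLF cells, a further hepatocellular carcinoma line, and all 3 lines after 24 h with 20 mM lactate, given as lactic acid; the series title ties the work to glycolysis and a lactyl mark on histone H4. The controls of PLC/PRF/5 and SNU475 are described by the absence of lactate and by nothing else. Both lines are established lines bought from cell banks and checked by short tandem repeat typing, so each stands for 1 line and not for a class of tumours. Whether both libraries of a line were grown apart is not stated, so part of the difference between them may be technical. The p-values rest on a spread estimated over all 12 libraries in 6 groups, and may not cover the difference between separate cultures. Total RNA was sequenced with a strand-marking kit, and the deposited tables hold an expected count and a TPM value per gene.

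Hepatocytes secrete most plasma proteins, among them albumin, transferrin, fibrinogen and the apolipoproteins, under a network of liver transcription factors that includes HNF4A, CEBPA and the FOXA family. Liver carcinoma lines keep this programme to very different degrees. Lines that have lost it often carry a mesenchymal programme, with vimentin, fibrillar collagens, matrix proteases and the repressors of the SNAI, ZEB and TWIST families, which can silence the E-cadherin gene CDH1. The labels call both lines hepatocellular carcinoma cells of liver. The markers listed for hepatocytes (ALB, TTR, APOA1, SERPINA1, TF and HNF4A) were all called higher in PLC/PRF/5. In SNU475 they lay between 0 and 1.5 TPM (a level corrected for transcript length and library size) in both libraries. Since carcinoma lines keep these genes to different degrees, the markers do not test the label.

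The PLC/PRF/5 control libraries held 16533437 and 17955652 expected counts and the SNU475 control libraries 18739832 and 20312115, within the range of 16533437 to 22187849 over all 12. The SNU475 libraries stood apart from each other more than the PLC/PRF/5 libraries did. Of 13979 genes with at least 100 counts over the 4 libraries, 1302 (9.31%) differed at least 2-fold between the SNU475 libraries and 114 (0.816%) between the PLC/PRF/5 libraries. Mitochondrially encoded genes took 7.996% of the counts in SNU475 replicate 1 and 15.1% in replicate 2, against 7.08% and 6.30% in PLC/PRF/5. The summed TPM of complement genes was 6.14 times as high in SNU475 replicate 1 as in replicate 2. That of plasma transport proteins was 3.57 times as high, and that of antigen presentation and surface immune ligand genes 2.99 times. Without SNU475 replicate 1 or replicate 2, the genes called between the lines, described next, numbered 7688 and 7061. The same omissions left 12 and 12 plasma transport genes, 10 and 10 apolipoprotein genes and 5 and 4 cholangiocyte markers higher in PLC/PRF/5, and 21 and 24 NRF2 targets higher in SNU475; counts for the lists where the SNU475 libraries differed most are given with each list. Between the lines, Pearson's r of log CPM lay between 0.741 and 0.764, against 0.988 within PLC/PRF/5 and 0.966 within SNU475, and the first principal component of the 4 libraries, which separates the lines, carried 91.3% of the variance.

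**Figure D1:**
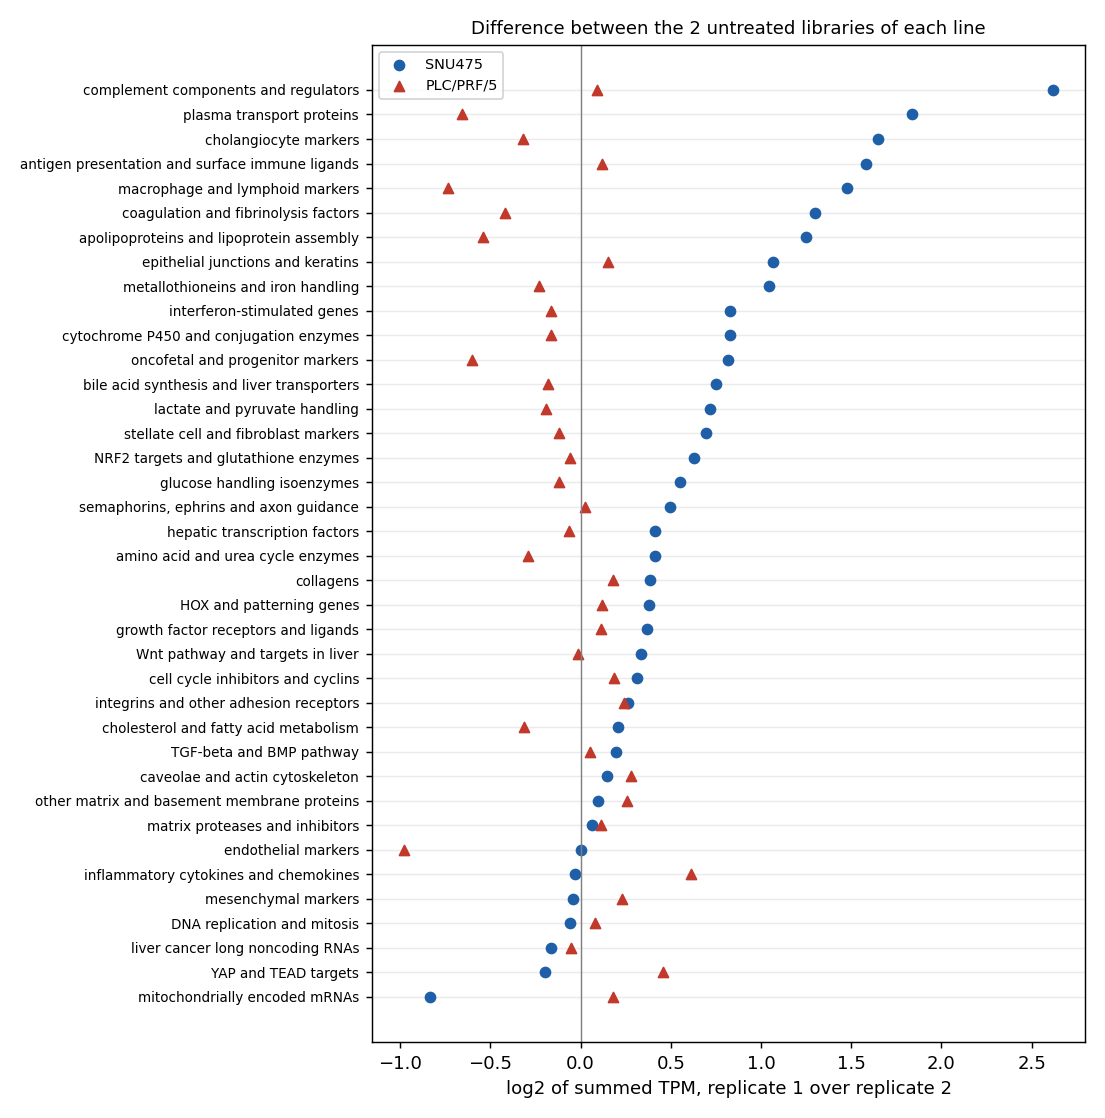
For each of the gene lists described in the text (vertical axis), the horizontal axis shows the log2 ratio of summed TPM in replicate 1 over replicate 2, for SNU475 (blue circles) and PLC/PRF/5 (red triangles). The SNU475 points reach 2.62 for complement components, while the PLC/PRF/5 points lie nearer to 0 for most lists.

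The lines differed in close to every second gene tested. With edgeR's quasi-likelihood test and Benjamini-Hochberg adjustment over 18355 genes, 8941 were called at an adjusted p under 0.05 (48.7% of those tested), 4110 higher in PLC/PRF/5 (22.4%) and 4831 higher in SNU475 (26.3%). A log2 fold change of at least 3 in either direction, which is 8-fold, was reached by 3381 of them (18.4%), 1279 higher in PLC/PRF/5 (6.97%) and 2102 higher in SNU475 (11.5%). Counts for the gene lists below are to be set beside the 22.4% and 26.3% of all genes. Fold changes are on scaled counts throughout, and a negative log2 fold change means higher in SNU475. The split depends on how libraries are scaled: 46% of the calls were higher in PLC/PRF/5 with TMM scaling, 57.9% with library totals alone and 66.9% with limma on log2(TPM + 1). The median log2 fold change over all genes was -0.03 with TMM, 0.24 with library totals alone and 0.30 on the TPM scale. In the median, TPM levels thus run further toward PLC/PRF/5 than the fold changes do. Single genes can depart from this, as ERBB3 does below. Protein-coding genes were called in 51.6% of 14759 cases and long noncoding genes in 37.2% of 2308.

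The genes at least 8-fold higher in PLC/PRF/5 were ordered by TPM, and the leading 12 are taken first. CLU, the chaperone clusterin, stood at 3686 and 4170 TPM in the PLC/PRF/5 libraries and 440 and 150 TPM in the SNU475 libraries. AFP, the fetal serum protein used as a liver tumour marker, reached 1758 and 3101 TPM against 5.02 and 3.32 TPM (log2 fold change 10.20 ± 0.45 SE, adjusted p = 4.1e-08). NTS, a gut neuropeptide precursor, followed at 1435 and 1650 TPM against 0 and 0.21 TPM. The lines did not overlap for any of these genes, which follows largely from choosing genes called at 8-fold or more. GDF15, a stress-induced TGF-beta family cytokine, AGT, the angiotensin precursor, FXYD2, a subunit of the sodium pump, and GPX2, an epithelial glutathione peroxidase, were also among the leading 12. GPX2 had no count in either SNU475 library and was at least 3611-fold higher in PLC/PRF/5, taking a floor of 3 counts over the SNU475 group; such lower bounds are used for single genes wherever a line has no count, since a fitted value would then depend on the prior count. The medians of gene lists are of fitted values, and are given at the bounds as well where that moves them.

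The 12 genes of SNU475 chosen by the same order were of mixed function. HSPB1, a small heat shock chaperone, stood at 4328 and 5632 TPM in SNU475 and 489 and 503 TPM in PLC/PRF/5. S100A6, a calcium-binding protein, was at 3616 and 4612 TPM in SNU475 and had no count in PLC/PRF/5, a difference of at least 9690-fold. AKR1B10, an aldo-keto reductase often raised in liver tumours, was at 2362 and 1447 TPM against 84.4 and 125 TPM (log2 fold change -4.75 ± 0.33, adjusted p = 1.8e-06). ACTA2, the smooth muscle actin of myofibroblasts, was at 802 and 479 TPM in SNU475, while the PLC/PRF/5 libraries held 1 count in all, which gives a ratio of 25440 (95% counting interval 4565 to 1005000). The 12 also held VIM, LGALS1, SPARC, SH3BGRL3, EPHX1, EMP3, HLA-B and SPANXA2; the last has near-identical copies among which the counting could split reads.

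Plasma proteins, apolipoproteins and clotting factors were higher in PLC/PRF/5 almost without exception. Of 15 plasma transport proteins tested, 13 were called higher in PLC/PRF/5 and none higher in SNU475 (median log2 fold change 6.67, or 5.05 with genes absent from SNU475 at their bound). Albumin (ALB), the main plasma protein, was at 19.6 and 63.3 TPM in PLC/PRF/5 and at 0 and 0.08 TPM in SNU475, where 2 counts in all gave a ratio of 853 (95% counting interval 236 to 7050). Transferrin (TF), the iron carrier, was at 36.0 and 68.5 TPM in PLC/PRF/5 and had 1 count in the SNU475 libraries. SERPINA1, the elastase inhibitor alpha-1-antitrypsin, stood at 287 and 448 TPM against 1.5 and 0.20 TPM (log2 fold change 9.45 ± 0.67, adjusted p = 1.0e-06). Vitronectin (VTN), an adhesive plasma protein, was at 498 and 522 TPM against 8.44 and 1.63 TPM. AFP was far above albumin in both PLC/PRF/5 libraries. No SNU475 library reached a PLC/PRF/5 library for any of the named members, but all except ALB were chosen by their small p. HP, ORM2, FETUB, ITIH1, ITIH3 and ITIH4, also on the list, were too low in all groups to be tested.

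Of 13 apolipoprotein and lipoprotein assembly genes tested, 11 were called higher in PLC/PRF/5 and 1 higher in SNU475 (median 6.37, or 4.80 at the bounds). APOB, the core protein of very-low-density lipoprotein, was at 68.8 and 67.2 TPM in PLC/PRF/5 with no count in SNU475, at least 7497-fold higher. MTTP, which loads lipid onto APOB, was at 3.66 and 6.11 TPM against 0.03 and 0.01 TPM. APOE stood at 415 and 497 TPM against 19.9 and 4.65 TPM (log2 fold change 4.80 ± 0.60, adjusted p = 6.7e-05). APOA1, the main protein of high-density lipoprotein, was low even in PLC/PRF/5, at 7.66 and 19.2 TPM, with no count in SNU475, at least 72.2-fold higher. APOA2 was at 161 and 289 TPM in PLC/PRF/5, again with no SNU475 count.

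Among 14 coagulation and fibrinolysis factors tested, 12 were called higher in PLC/PRF/5 and none higher in SNU475 (median 8.72, or 5.82 at the bounds), and the count was 12 without either SNU475 library. The 3 fibrinogen chains, whose genes are neighbours on chromosome 4, were the most abundant of the list. FGA stood at 590 and 703 TPM in PLC/PRF/5 and 0.44 and 0.03 TPM in SNU475 (log2 fold change 10.96 ± 0.76, adjusted p = 8.7e-07). FGB was at 902 and 1223 TPM against 1.66 and 1.31 TPM, and FGG at 495 and 724 TPM against 1.17 and 0.08 TPM. Each chain was above 400 TPM in PLC/PRF/5 and below 2 TPM in SNU475. F2, the prothrombin gene, was at 15.4 and 24.7 TPM with no SNU475 count, at least 271-fold higher. PROS1, the anticoagulant cofactor protein S, differed less, at 46.7 and 58.9 TPM against 3.28 and 1.12 TPM (log2 fold change 4.11 ± 0.38).

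**Figure D2:**
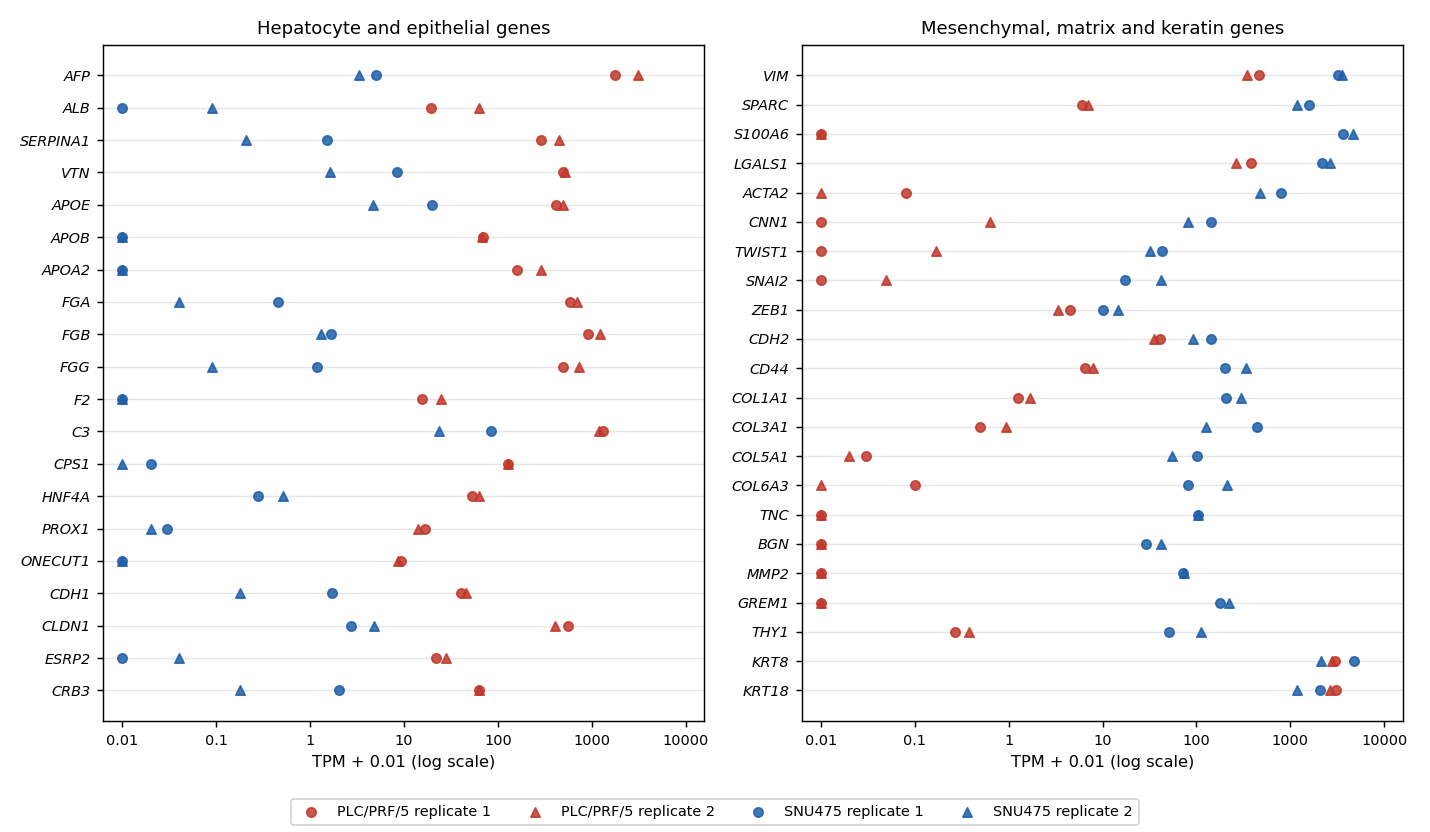
TPM + 0.01 on a log scale (horizontal axis) for hepatocyte and epithelial genes (left) and mesenchymal, matrix and keratin genes (right) in the 2 control libraries of PLC/PRF/5 (red) and of SNU475 (blue); circles are replicate 1 and triangles replicate 2, and points at 0.01 are genes listed at 0 TPM. AFP lies above 1000 TPM in both PLC/PRF/5 libraries and near 4 TPM in SNU475, TNC lies above 100 TPM in SNU475 only, and KRT8 and KRT18 lie above 1000 TPM in all 4.

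RefSeq promoter sequences (assembly GRCh38.p14, 250 bases before to 50 bases after the start) were matched to 11728 of the 14759 protein-coding genes tested. CAAAGTC, a part of the site read by HNF4A, or its reverse complement GACTTTG occurred in 2.48% of all these promoters, in 3.64% of the 632 promoters of genes called at least 8-fold higher in PLC/PRF/5 and in 2.75% of the 1199 promoters of genes called at least 8-fold higher in SNU475. It occurred in 1 of 13 coagulation promoters (F10, which was not called, 1.25 on the log2 scale) and 1 of 11 plasma transport promoters (AHSG, the fetuin-A gene, at 0.43 and 0.17 TPM in PLC/PRF/5 with no count in SNU475, adjusted p = 0.048). A match describes the letters and is not a measured binding site.

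The liver transcription factors followed the same direction. Of 20 tested, 15 were called higher in PLC/PRF/5, 3 higher in SNU475 and 2 were not called (median log2 fold change 3.91); the PLC/PRF/5 count was 15 without SNU475 replicate 1 and 13 without replicate 2. HNF4A, the nuclear receptor at the centre of hepatocyte identity, was at 52.7 and 63.4 TPM in PLC/PRF/5 and 0.27 and 0.51 TPM in SNU475 (log2 fold change 6.60 ± 0.53, adjusted p = 9.3e-06). CEBPA, a leucine zipper factor of mature hepatocytes, stood at 12.6 and 14.8 TPM against 0.57 and 0.31 TPM (4.45 ± 0.36). PROX1, needed for liver bud growth, was at 16.7 and 14.1 TPM with 3 counts in SNU475, a ratio of 963 (95% counting interval 329 to 4671). ONECUT1, a homeobox factor of liver and bile duct development, had no SNU475 count and was at least 263-fold higher. FOXA1 was the mildest of the FOXA pioneers, at 36.2 and 40.7 TPM against 12.8 and 3.05 TPM (1.75 ± 0.55), while FOXA2 and FOXA3 differed by 6.11 ± 0.79 and 5.96 ± 0.49. GATA4 and GATA6, factors of endoderm, differed in opposite directions: GATA4 was at 38.8 and 37.5 TPM in PLC/PRF/5 against 6.47 and 3.37 TPM, and GATA6 at 0.27 and 0.11 TPM against 6.34 and 5.54 TPM (-6.05 ± 0.57). CEBPB, the stress-responsive partner of CEBPA, and TBX3 were the other members higher in SNU475, the latter by -0.75 ± 0.22 only.

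Complement did not follow the other liver secretory genes. Of 17 components and regulators tested, 10 were called higher in SNU475, 5 higher in PLC/PRF/5 and 2 were not called (median log2 fold change -4.79, or -4.56 at the bounds). C1R and C1S, the proteases of the first component, stood at 92.3 and 21.9 TPM and at 151 and 54.4 TPM in the SNU475 libraries, against 0.43 and 0.10 TPM and 1.58 and 1.87 TPM in PLC/PRF/5 (log2 fold changes -8.36 ± 0.86 and -6.46 ± 0.46). CFB, the protease of the alternative pathway, was at 55.2 and 11.5 TPM against 0.45 and 0.61 TPM. C4A and C4B, near-identical copies that counting can mix, were at 492 and 69.8 TPM and at 451 and 33.8 TPM in SNU475 against at most 1.07 TPM. C3, the central component, went the other way, at 1320 and 1186 TPM in PLC/PRF/5 against 83.8 and 23.3 TPM (4.59 ± 0.77, adjusted p = 0.00055), and so did C5, at 15.4 and 18.5 TPM against 0.50 and 0.29 TPM. The SNU475 libraries differed most on this list, replicate 1 being higher, and the count higher in SNU475 was 9 without replicate 1 and 10 without replicate 2. Whether the difference between these libraries bears on the line difference was not tested.

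Metabolic enzymes of the hepatocyte were mixed. CPS1, which feeds ammonia into the urea cycle, was at 129 and 129 TPM in PLC/PRF/5 with 1 count in SNU475 (ratio 13430, 95% counting interval 2410 to 530400). GLDC, of the glycine cleavage system, stood at 78.5 and 71.1 TPM against 0.08 and 0.56 TPM (log2 fold change 7.92 ± 0.53). Of the 16 amino acid and urea cycle enzymes tested, 8 were called higher in PLC/PRF/5 and 5 higher in SNU475 (median 1.22); the SNU475 side included HPD, a tyrosine breakdown enzyme, at 6.01 and 2.55 TPM against 0.14 and 0.26 TPM, and OTC and ARG1 of the urea cycle were too low to be tested.

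Drug-metabolising enzymes gave 8 of 15 members higher in PLC/PRF/5 and 3 higher in SNU475. UGT2B7, a glucuronosyltransferase, was at 11.2 and 12.5 TPM with 2 counts in SNU475, a ratio of 177 (95% counting interval 48.6 to 1463), and the sulfotransferase SULT1A1 at 1.6 and 3.19 TPM against 50.9 and 29.2 TPM (log2 fold change -4.74 ± 0.52). Most of the adult liver P450 genes on the list, among them CYP1A2, CYP2D6 and CYP3A4, were too low in every group to be tested. The PLC/PRF/5 count rested on few libraries: it was 5 without PLC/PRF/5 replicate 2 and 5 without SNU475 replicate 2. Bile acid and transport genes gave 8 of 12 higher in PLC/PRF/5 and 3 higher in SNU475; ABCB1, the multidrug exporter, was at 35.6 and 29.8 TPM against 0.80 and 0.95 TPM (6.24 ± 0.32, adjusted p = 1.2e-07), whereas ABCC3, an exporter on the blood side of hepatocytes, was at 3.75 and 6.34 TPM against 23.7 and 15.6 TPM (-2.26 ± 0.42).

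Fetal liver and progenitor genes were higher in PLC/PRF/5 in 8 of 17 cases and higher in SNU475 in 1. GPC3, a heparan sulfate proteoglycan of fetal liver and liver tumours, was at 44.4 and 77.3 TPM in PLC/PRF/5 with no SNU475 count, at least 832-fold higher. LIN28B, which blocks let-7 maturation, stood at 41.2 and 37.1 TPM against 3.70 and 4.10 TPM (log2 fold change 2.68 ± 0.23), and SALL4, a stem cell zinc finger protein, at 8.05 and 9.79 TPM against 0.22 and 0.44 TPM (4.55 ± 0.38). The imprinted neighbours H19 and IGF2 differed in level. H19 was at 91.3 and 182 TPM against 4.16 and 2.67 TPM (5.26 ± 0.78, adjusted p = 0.00022). IGF2 stayed below 1 TPM in all 4 libraries (2.14 ± 0.99, adjusted p = 0.094). It was called higher in PLC/PRF/5 by edgeR without a filter on low counts (adjusted p = 0.036) and by limma on log2(TPM + 1) (0.028). PROM1, the gene of the stem cell antigen CD133, was the member higher in SNU475, at 4.31 and 4.65 TPM against 0.07 and 0 TPM. EPCAM, an epithelial progenitor antigen, was at most 0.74 TPM in any of the 4 libraries, and KRT19, a biliary keratin, was at 87.7 and 96.2 TPM in PLC/PRF/5 and 102 and 38.5 TPM in SNU475, where the libraries straddled the PLC/PRF/5 values. The sign of the KRT19 fold change (-0.10 ± 0.35) turned without SNU475 replicate 1 (0.55) on library totals alone (0.15) and on the TPM scale (0.54).

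Of 32 junction and keratin genes tested, 16 were called higher in PLC/PRF/5, 3 higher in SNU475 and 13 were not called (median log2 fold change 0.77). E-cadherin (CDH1), the adhesion molecule of epithelia, was at 40.4 and 45.6 TPM in PLC/PRF/5 and 1.69 and 0.17 TPM in SNU475 (5.05 ± 0.84, adjusted p = 0.00052). ESRP2, a splicing factor of epithelial cells, was at 21.8 and 27.8 TPM with 2 counts in SNU475, a ratio of 823 (95% counting interval 227 to 6797). Another epithelial splicing factor on the list was called higher in SNU475. The desmosomal cadherin DSC2 was at 32.0 and 27.7 TPM against 0.48 and 0.45 TPM (5.64 ± 0.26), and CLDN1, a tight junction claudin, at 553 and 409 TPM against 2.73 and 4.78 TPM (6.41 ± 0.54). CRB3, a polarity protein of the apical membrane, stood at 62.5 and 63.7 TPM against 2.04 and 0.17 TPM. CLDN4 was the reverse of CLDN1, at 0.91 and 1.51 TPM in PLC/PRF/5 against 39.4 and 21.0 TPM (-5.12 ± 0.49). The keratins of simple epithelia stayed on in both lines: KRT8 was at 2979 and 2748 TPM against 4779 and 2101 TPM (-0.77 ± 0.28, adjusted p = 0.041) and KRT18 at 3033 and 2646 TPM against 2081 and 1179 TPM (0.31 ± 0.25, adjusted p = 0.33). The KRT8 call was lost without PLC/PRF/5 replicate 1 (adjusted p = 0.11), PLC/PRF/5 replicate 2 (0.19) or SNU475 replicate 1 (0.45), and it held without SNU475 replicate 2 (-1.13, adjusted p = 0.0073). It was also lost with the 4 control libraries alone (0.094) or with a replicate block (0.15), with the 8 libraries of both lines (0.072), with the length offset (0.06), against a 2-fold change, on library totals alone and on the TPM scale, which makes 10 of 19 alternatives.

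The repressors of the SNAI and ZEB families read the E-box CAGGTG. These letters or their reverse complement CACCTG were found in 18.5% of all 11728 promoters, in 28.5% of those of genes at least 8-fold higher in PLC/PRF/5 and in 16.8% of those at least 8-fold higher in SNU475. Of 17 epithelial promoters matched, 7 held it: DSG2, DSP, TJP1, CRB3, DSC2, CLDN3 and OCLN. TJP1 and CLDN3 among these were not called between the lines, at 0.21 ± 0.18 and -0.42 ± 0.45. The 250 bases before the start are shown for the pair with the largest differences, at chr18:31102422-31102671 (minus strand) and chr19:6464021-6464270 (plus strand) of GRCh38.p14, with the E-box in capitals. DSC2 has 1 copy, beginning 156 bases before the start, and CRB3 has 5, beginning 228, 208, 147, 89 and 60 bases before it.
DSC2: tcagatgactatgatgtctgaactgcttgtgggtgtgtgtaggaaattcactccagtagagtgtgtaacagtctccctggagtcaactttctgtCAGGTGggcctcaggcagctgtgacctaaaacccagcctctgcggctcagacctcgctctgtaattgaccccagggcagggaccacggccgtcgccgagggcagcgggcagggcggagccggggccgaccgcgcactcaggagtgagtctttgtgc
CRB3: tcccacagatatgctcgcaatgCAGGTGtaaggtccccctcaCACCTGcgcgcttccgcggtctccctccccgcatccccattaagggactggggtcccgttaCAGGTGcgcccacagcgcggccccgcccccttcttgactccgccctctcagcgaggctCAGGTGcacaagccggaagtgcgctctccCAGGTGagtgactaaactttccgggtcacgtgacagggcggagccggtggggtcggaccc

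Mesenchymal genes were the list most uniformly higher in SNU475. Of 30 tested, 28 were called higher in SNU475, none higher in PLC/PRF/5 and 2, FN1 and NT5E, were not called (median log2 fold change -6.48, or -5.87 at the bounds); the count was 28 without any 1 of the 4 libraries. The repressors came first in their own group. SNAI2 was at 17.5 and 42.3 TPM in SNU475 with 1 count in PLC/PRF/5 (ratio 2279, 95% counting interval 409 to 90060), and TWIST1 at 42.5 and 32.3 TPM with 3 counts (ratio 528, interval 180 to 2561). ZEB1 differed least, at 10.02 and 14.47 TPM in SNU475 against 4.48 and 3.33 TPM (-2.24 ± 0.41, adjusted p = 0.001), with ZEB2 at 9.81 and 14.2 TPM against 1.42 and 1 TPM and SNAI1 at 15.6 and 18.2 TPM against 3.21 and 2.88 TPM. All of these 5 factors were called, and that their groups did not overlap adds little to the calls. The share of all tested genes without overlap was not counted.

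Vimentin (VIM), the intermediate filament of mesenchymal cells, was at 3244 and 3558 TPM in SNU475 and still at 466 and 342 TPM in PLC/PRF/5 (log2 fold change -3.61 ± 0.33, adjusted p = 5.7e-06). N-cadherin (CDH2), which hepatocytes also carry, was at 144 and 92.2 TPM against 40.6 and 35.6 TPM (-2.14 ± 0.19). CD44, the hyaluronan receptor, differed more, at 199 and 339 TPM against 6.45 and 7.87 TPM (-6.09 ± 0.41). SPARC, a collagen-binding matricellular protein, stood at 1585 and 1181 TPM against 5.98 and 7.02 TPM (-8.20 ± 0.37). The contractile genes ACTA2 and CNN1 were nearly confined to SNU475, while TAGLN and MYL9, also contractile, had clear levels in PLC/PRF/5 too. TAGLN was at 182 and 55.1 TPM in PLC/PRF/5 against 531 and 512 TPM, and MYL9 at 460 and 255 TPM against 1015 and 686 TPM.

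The matrix differed across its classes. Of 21 collagen genes tested, 17 were called higher in SNU475 and none higher in PLC/PRF/5 (median log2 fold change -5.27, or -4.97 at the bounds). COL1A1, a chain of fibrillar collagen I, was at 205 and 295 TPM in SNU475 against 1.25 and 1.67 TPM (-9.12 ± 0.49, adjusted p = 1.5e-07). COL3A1 was at 437 and 127 TPM against 0.49 and 0.92 TPM, and COL6A2, of the pericellular collagen VI, at 131 and 145 TPM against 1.31 and 1.40 TPM (-7.21 ± 0.26). The basement membrane chain COL4A1 was present in both, at 122 and 134 TPM against 8.21 and 8.89 TPM, and COL7A1 and COL18A1 were not called (0.05 ± 0.55 and -0.42 ± 0.62).

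Among 32 other matrix genes, 26 were called higher in SNU475 and 3 higher in PLC/PRF/5 (median -4.18). TNC, the wound matrix protein tenascin C, was at 104 TPM in both SNU475 libraries with no PLC/PRF/5 count, at least 4658-fold higher. Lysyl oxidase (LOX), which crosslinks collagen, stood at 24.2 and 37.9 TPM against 0.29 and 0.32 TPM. The exceptions were VCAN, the proteoglycan versican, at 114 and 124 TPM in PLC/PRF/5 against 2.67 and 1.34 TPM (5.57 ± 0.31, adjusted p = 1.9e-07), HSPG2 (perlecan) and FBLN1. Laminin chains LAMB1 and LAMC1 differed by less than 1 on the log2 scale. Of 24 proteases and inhibitors, 20 were called higher in SNU475 and 2, the membrane-bound MMP14 and MMP15, higher in PLC/PRF/5 (median -5.15, or -4.49 at the bounds). MMP2, a secreted gelatinase, was at 72.2 and 74.0 TPM in SNU475 with no PLC/PRF/5 count, at least 2690-fold higher. PLAUR, the urokinase receptor, was at 55.8 and 51.2 TPM against 2.35 and 2.58 TPM (-5.11 ± 0.40), whereas MMP14 was at 126 and 138 TPM in PLC/PRF/5 against 28.9 and 27.8 TPM (1.46 ± 0.21).

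**Figure D3:**
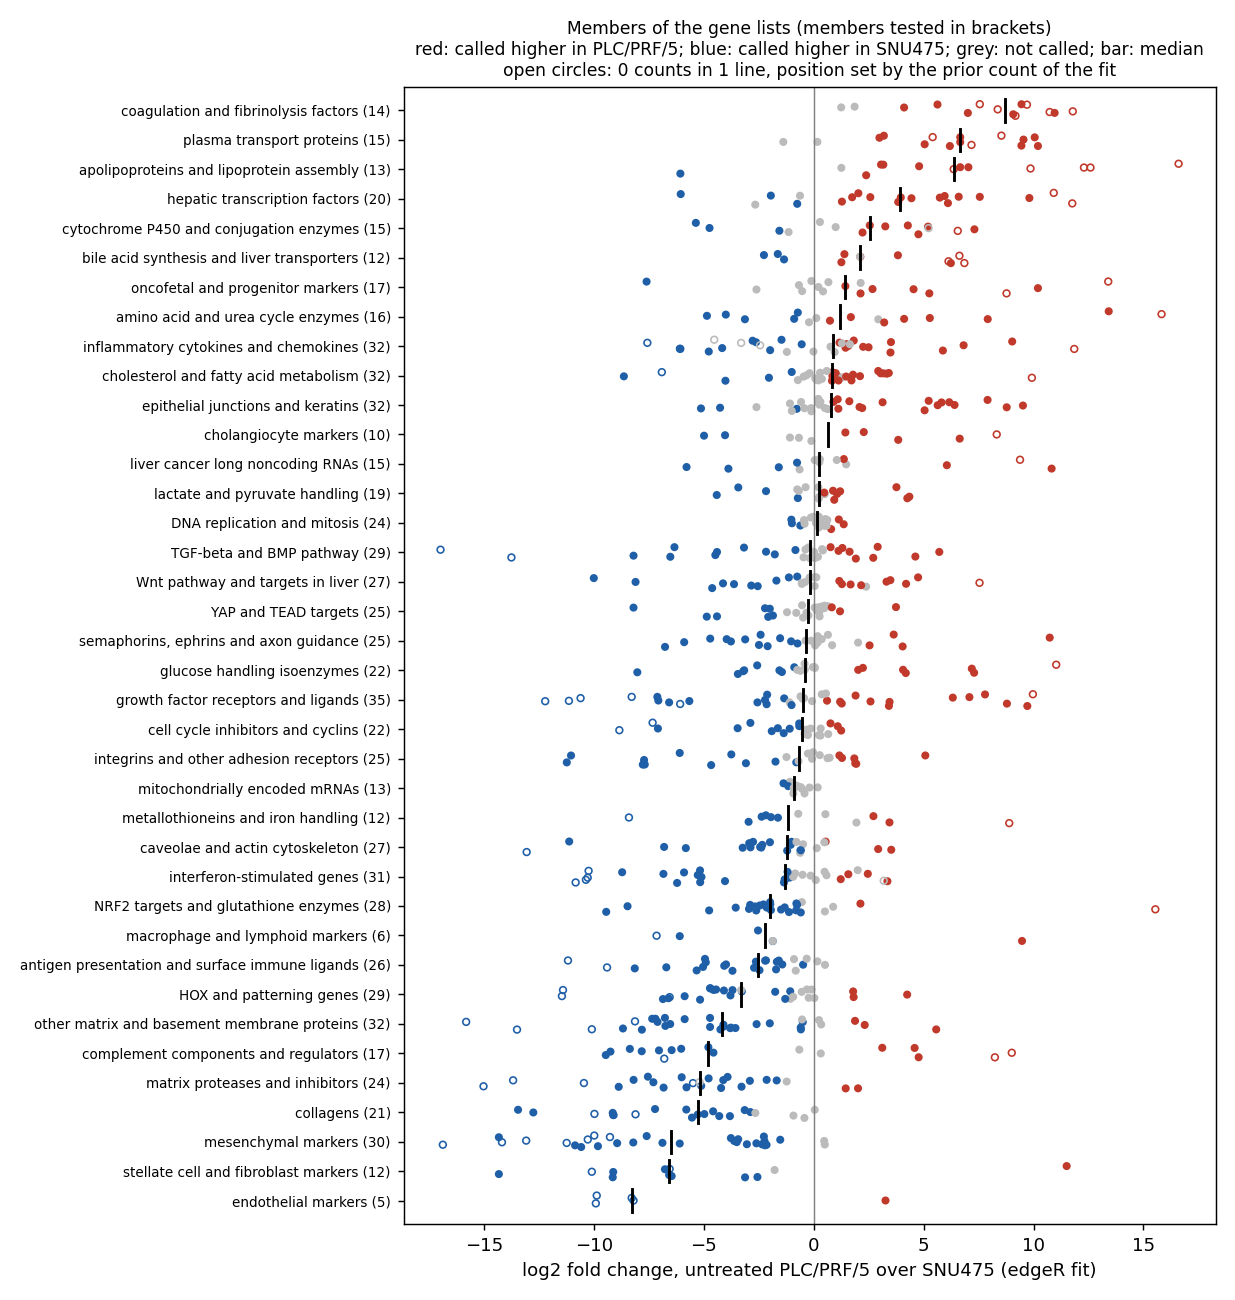
Each point is a tested member of a gene list (vertical axis, number tested in brackets) at its log2 fold change between untreated PLC/PRF/5 and SNU475 (horizontal axis); red points were called higher in PLC/PRF/5, blue points higher in SNU475, grey points were not called, and open circles have no count in 1 line. The medians, drawn as bars, include 8.72 for coagulation factors, -6.48 for mesenchymal markers and -8.28 for endothelial markers; with genes absent from 1 line at their bounds these become 5.82, -5.87 and -4.65.

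Of 25 integrins and other adhesion receptors, 6 were called higher in PLC/PRF/5 and 11 higher in SNU475 (median -0.69), where all genes gave 22.4% and 26.3%. ITGA4, a fibronectin and VCAM1 receptor chain, was at 31.2 and 17.6 TPM in SNU475 with 2 counts in PLC/PRF/5, and ITGA3, a laminin receptor chain, at 193 and 147 TPM against 8.99 and 9.81 TPM (-4.66 ± 0.29). ITGB4, the chain of epithelial hemidesmosomes, was at 124 and 109 TPM in PLC/PRF/5 against 6.16 and 0.81 TPM (5.08 ± 0.73). ITGB1, the partner shared by many integrins, was not called (-0.26 ± 0.21). Of 27 caveolar and actin genes, 19 were higher in SNU475 and 3 in PLC/PRF/5 (median -1.20): EHD2, which holds caveolae at the membrane, stood at 201 and 141 TPM against 2.05 and 2.40 TPM (-6.80 ± 0.24, adjusted p = 1.7e-08), and CAV1 at 215 and 352 TPM against 56.5 and 34.6 TPM (-3.23 ± 0.41). The tropomyosin TPM2 was reversed, at 539 and 424 TPM in PLC/PRF/5 against 39.1 and 46.3 TPM.

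Growth factor signalling genes divided without a common direction, 13 of 35 called higher in PLC/PRF/5 and 15 higher in SNU475. All genes gave 22.4% and 26.3%. FGFR4, the main FGF receptor of hepatocytes, was at 398 and 413 TPM against 4.21 and 4.03 TPM (log2 fold change 6.33 ± 0.26, adjusted p = 3.1e-08), and its coreceptor for FGF19, KLB, at 16.7 and 11.2 TPM against 0.11 and 0.04 TPM. ERBB3 stood at 45.0 and 71.6 TPM against 3.07 and 0.19 TPM (8.79 ± 0.52). This log2 fold change is larger than the TPM values give. It ran from 4.715 to 10.186 over the main and alternative fits, and the cause was not tested. FGFR1 and MERTK were also higher in PLC/PRF/5 (1.20 ± 0.18 and 2.59 ± 0.31), FGFR1 at 115 and 133 TPM against 43.3 and 28.2 TPM, and FGFR2 higher in SNU475, at 4.12 and 1.59 TPM against 0.11 and 0.06 TPM (-5.65 ± 0.70). The EGFR ligands EREG and AREG were at 121 and 78.4 TPM and at 146 and 105 TPM in PLC/PRF/5, and below 1 TPM in SNU475. NRG1, the ERBB3 ligand, was found in SNU475 only, at 59.8 and 21.3 TPM, at least 386-fold higher. PDGFRB, a stromal receptor, was at 4.43 and 4.94 TPM in SNU475 against 0.09 and 0.04 TPM (-6.57 ± 0.45).

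Of the TGF-beta and BMP genes, 9 of 29 were called higher in PLC/PRF/5 and 11 in SNU475, where all genes gave 22.4% and 26.3%. The ligands TGFB1 and TGFB2 were higher in SNU475, TGFB1 at 217 and 196 TPM against 32.7 and 28.8 TPM (-3.17 ± 0.30), while the receptor TGFBR2 was at 173 and 131 TPM in PLC/PRF/5 against 19.67 and 16.48 TPM (2.71 ± 0.20). The BMP antagonist GREM1 was at 178 and 220 TPM in SNU475 with no PLC/PRF/5 count, at least 10430-fold higher. The activin chains parted, INHBA with counts in SNU475 only and INHBB at 45.3 and 29.2 TPM in PLC/PRF/5 against 0.50 and 0.48 TPM (5.72 ± 0.40). In the Wnt pathway, with 9 of 27 higher in PLC/PRF/5 and 10 in SNU475, the noncanonical ligands WNT5A and WNT5B were at 31.5 and 23.3 TPM and 15.3 and 17.1 TPM in SNU475 and below 0.3 TPM in PLC/PRF/5, and LGR5, a stem cell receptor and Wnt target, was at 9.7 and 8.5 TPM in PLC/PRF/5 against 0.43 and 0.19 TPM (4.203 ± 0.693). Of 25 YAP and TEAD targets and pathway members, 3 were called higher in PLC/PRF/5 and 7 in SNU475, against 22.4% and 26.3% of all genes. The list holds pathway factors such as YAP1, WWTR1 and the TEAD genes, so these are not counts of targets alone. YAP1 itself was not called (-0.24 ± 0.22).

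Among 32 inflammatory genes, 13 were called higher in PLC/PRF/5 and 10 higher in SNU475 (median 0.86), where all genes gave 22.4% and 26.3%. The neutrophil chemokines CXCL8 and CXCL5 were at 676 and 348 TPM and at 608 and 387 TPM in PLC/PRF/5, against 14.1 and 44.7 TPM and 3.53 and 7.63 TPM in SNU475 (3.52 ± 0.69 and 5.88 ± 0.59). CCL20, which attracts CCR6-bearing cells, stood at 651 and 435 TPM against 0.30 and 1.23 TPM (9.03 ± 0.70). CCL2 and CSF1, which act on monocytes, were higher in SNU475, CSF1 at 78.7 and 51.7 TPM against 4.18 and 3.78 TPM (-4.77 ± 0.26). The summed TPM of the list was 1.53 times as high in PLC/PRF/5 replicate 1 as in replicate 2. Of 31 interferon-stimulated genes, 18 were called higher in SNU475 and 4 higher in PLC/PRF/5 (median -1.30); the count was 15 without SNU475 replicate 1, 19 without replicate 2 and 11 on the TPM scale. MX2, IFI44 and TLR3 had no count in PLC/PRF/5. STING1, the adaptor of cytosolic DNA sensing, was at 35.6 and 32.5 TPM in SNU475 against 0.24 and 0.10 TPM (-8.71 ± 0.59), whereas the effectors OAS1 and OAS3 and the sensor RIGI were higher in PLC/PRF/5.

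Antigen presentation was higher in SNU475 in 21 of 26 genes tested and in PLC/PRF/5 in none (median -2.55); the count was 17 without SNU475 replicate 1 and 21 without replicate 2. The 26 include surface immune ligands and receptors beside presentation genes, and CD274, PDCD1LG2, CD276, CD47, ULBP2 and TNFRSF9 are among the 21. HLA-B was at 1372 and 308 TPM in SNU475 and 13.6 and 8.06 TPM in PLC/PRF/5 (-6.70 ± 0.70, adjusted p = 1.8e-05). Reads of the HLA genes can be split among related copies. PSMB8, a catalytic subunit of the immunoproteasome, stood at 333 and 84.5 TPM against 1.31 and 0.69 TPM (-8.14 ± 0.67). B2M, the light chain of class I molecules, was at 4198 and 1680 TPM against 771 and 705 TPM. SNU475 replicate 1 was above replicate 2 for each of these 3, and both were above PLC/PRF/5.

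NRF2 targets and glutathione enzymes formed another list higher in SNU475, in 23 of 28 genes, with 2 higher in PLC/PRF/5 (median -1.98). NQO1, a quinone reductase and classical NRF2 target, was at 3597 and 2249 TPM in SNU475 and 763 and 842 TPM in PLC/PRF/5 (-2.45 ± 0.22, adjusted p = 5.9e-06). SRXN1, which restores oxidised peroxiredoxins, stood at 369 and 274 TPM against 63.2 and 61.8 TPM (-2.89 ± 0.23). PGD, of the pentose phosphate pathway, was at 946 and 714 TPM against 267 and 267 TPM (-2.28 ± 0.21). GPX2 and the exporter ABCC4 were the members higher in PLC/PRF/5, and HMOX1, the haem oxygenase, was not called (0.51 ± 0.26). The iron store genes FTL and FTH1 were higher in SNU475, FTH1 at 10439 and 5277 TPM against 2206 and 2344 TPM (-2.17 ± 0.28), and the transferrin receptor TFRC higher in PLC/PRF/5, at 343 and 380 TPM against 49.4 and 37.9 TPM (2.72 ± 0.23). Metallothionein genes are near-identical copies and their counts are uncertain.

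Glucose handling differed by isoenzyme, which matters here because the series concerns glycolysis. Of 22 genes tested, 7 were called higher in PLC/PRF/5 and 8 higher in SNU475 (median -0.41), where all genes gave 22.4% and 26.3%. The transporter genes SLC2A2 and SLC2A3 were higher in PLC/PRF/5, SLC2A3 at 238 and 168 TPM against 10.8 and 7.6 TPM (4.07 ± 0.54), and SLC2A1 higher in SNU475, at 100 and 69.0 TPM against 36.7 and 46.4 TPM (-1.56 ± 0.31). The hexokinases parted in the same way: HK1 was at 117 and 113 TPM in SNU475 against 13.8 and 15.8 TPM (-3.45 ± 0.23, adjusted p = 6.1e-07), HK2 at 11.6 and 7.42 TPM against 0.80 and 2.09 TPM (-3.16 ± 0.50), and HKDC1 at 70.0 and 50.5 TPM in PLC/PRF/5 against 13.4 and 14.9 TPM (2.03 ± 0.19). The platelet-type phosphofructokinase PFKP was at 387 and 272 TPM in SNU475 against 57.0 and 45.5 TPM (-3.20 ± 0.27), while the liver-type PFKL was not called (0.04 ± 0.26).

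At the lower end of glycolysis, PKM, the pyruvate kinase of most proliferating cells, was at 1639 and 1737 TPM in PLC/PRF/5 and 1927 and 1206 TPM in SNU475 (-0.42 ± 0.22, adjusted p = 0.14; 0.15 on the TPM scale), and the liver isoform PKLR was at 5.25 and 10.7 TPM in PLC/PRF/5 with no SNU475 count. The lactate dehydrogenase isoforms also contrasted. LDHA was at 894 and 950 TPM against 996 and 941 TPM (-0.40 ± 0.20, adjusted p = 0.12), and LDHB at 1227 and 1328 TPM against 22.04 and 5.81 TPM (7.30 ± 0.46, adjusted p = 4.0e-07). LDHA thus overlapped between the lines, while LDHB was more abundant than LDHA in both PLC/PRF/5 libraries and far below it in both SNU475 libraries. TXNIP, an arrestin that restrains glucose uptake, was at 46.0 and 30.9 TPM in SNU475 against 0.25 and 0.20 TPM (-8.02 ± 0.60, adjusted p = 1.6e-06).

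Of 19 genes for lactate and pyruvate handling, 8 were called higher in PLC/PRF/5 and 4 higher in SNU475 (median 0.25). All genes gave 22.4% and 26.3%. The lactate exporter SLC16A3 (MCT4) was at 58.5 and 40.7 TPM in SNU475 and 4.92 and 7.68 TPM in PLC/PRF/5 (-3.43 ± 0.37, adjusted p = 2.2e-05). SLC16A1 (MCT1) differed little, at 36.4 and 35.2 TPM against 33.7 and 30.4 TPM (-0.72 ± 0.24, adjusted p = 0.026), a call lost without PLC/PRF/5 replicate 1 (adjusted p = 0.061), PLC/PRF/5 replicate 2 (0.17) or SNU475 replicate 2 (0.14). PDK4, a kinase that switches off pyruvate dehydrogenase, stood at 28.5 and 42.5 TPM in PLC/PRF/5 against 1.48 and 0.93 TPM (4.35 ± 0.32, adjusted p = 1.4e-06). The pyruvate carrier genes MPC1 and MPC2 were higher in PLC/PRF/5 by 1.07 ± 0.37 and 0.88 ± 0.20, and pyruvate carboxylase (PC) higher in SNU475, at 30.1 and 14.3 TPM against 6.50 and 7.22 TPM (-2.17 ± 0.43). EP300, an acetyltransferase proposed as a writer of lactyl marks, was at 21.22 and 25.95 TPM against 6.99 and 3.53 TPM (1.52 ± 0.35, adjusted p = 0.0043). The PLC/PRF/5 count of this list was 3 without PLC/PRF/5 replicate 2 and 5 without either SNU475 library.

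**Figure D4:**
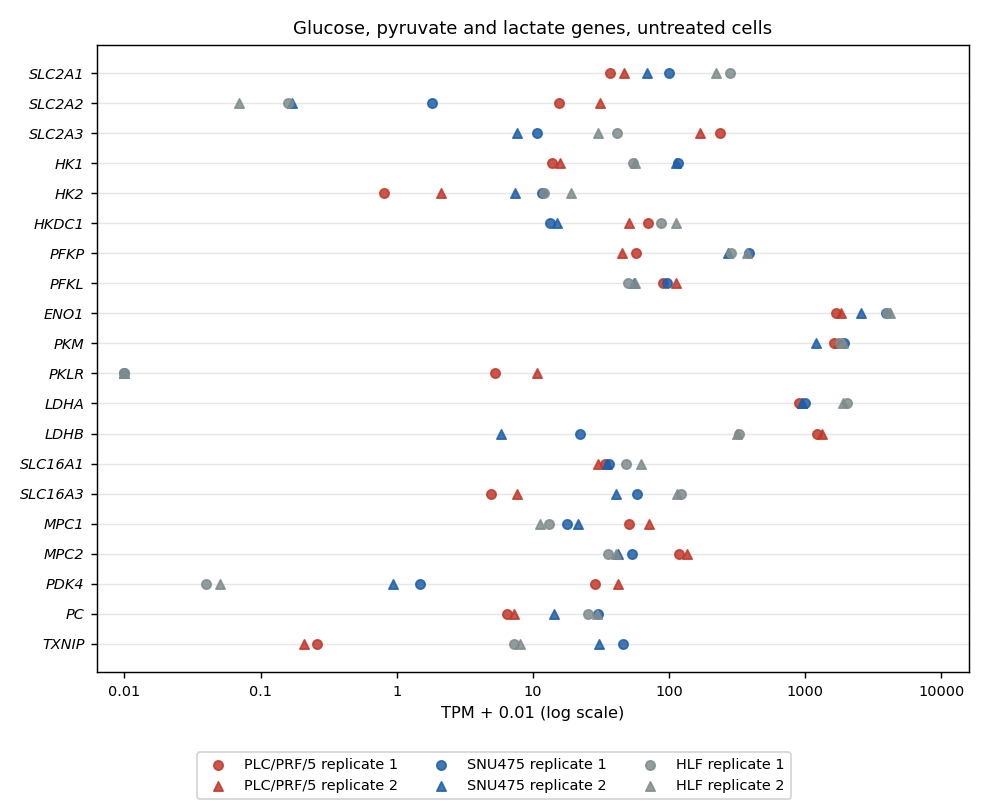
TPM + 0.01 on a log scale (horizontal axis) of glucose, pyruvate and lactate genes in untreated PLC/PRF/5 (red), SNU475 (blue) and, for orientation, HLF (grey); circles are replicate 1 and triangles replicate 2. LDHB and PDK4 lie higher in PLC/PRF/5 than in SNU475, SLC16A3, HK1, PFKP and TXNIP lower, and LDHA and PKM overlap or lie close together.

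Sterol and fatty acid genes leaned to PLC/PRF/5, 16 of 32 called higher there and 5 higher in SNU475 (median 0.84). HMGCS1, of sterol synthesis, was at 284 and 337 TPM against 18.6 and 16.6 TPM (3.42 ± 0.39), and ACACA, the acetyl-CoA carboxylase, at 122 and 135 TPM against 19.5 and 13.0 TPM (3.18 ± 0.29, adjusted p = 6.5e-06). The desaturases SCD and FADS2 went opposite ways, SCD at 432 and 583 TPM in PLC/PRF/5 against 61.6 and 32.3 TPM (2.94 ± 0.31) and FADS2 at 7.53 and 10.5 TPM against 118 and 39.1 TPM (-4.01 ± 0.54). CD36, a fatty acid receptor, was at 34.2 and 9.42 TPM in SNU475 against 0.32 and 0.03 TPM (-8.63 ± 0.70).

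Cell cycle genes were read as separate lists, inhibitors with cyclins and their regulators, and the replication machinery. Of 22 inhibitors, cyclins and their regulators, 11 were called higher in SNU475 and 3 higher in PLC/PRF/5 (median -0.53). CDKN1A (p21) was at 52.4 and 19.9 TPM in SNU475 against 4.96 and 4.76 TPM (-3.46 ± 0.33, adjusted p = 9.1e-06), and CCND3 at 169 and 93.8 TPM against 27.3 and 26.5 TPM (-2.88 ± 0.23). Replication and mitosis genes were among the lists with the fewest calls, 6 of 24 (25.0%, against 48.7% of all genes), 3 in each direction: MKI67 was higher in PLC/PRF/5 (1.37 ± 0.28, adjusted p = 0.0019) and PCNA higher in SNU475 (-0.99 ± 0.20, adjusted p = 0.0016). The number higher in PLC/PRF/5 moved with the settings, to 6 with DESeq2 or a filter of 1 CPM, 7 in the 4 control libraries alone, 8 on library totals alone and 10 on the TPM scale.

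Patterning genes were higher in SNU475 in 18 of 29 cases and in PLC/PRF/5 in 3 (median -3.30, or -3.27 at the bounds). HOXB7 was at 36.9 and 23.9 TPM in SNU475 against 0.59 and 0.07 TPM, PITX1, a hindlimb and pituitary factor, at 25.8 and 24.4 TPM against 1.56 and 1.07 TPM (-4.69 ± 0.38), and HOXC8 at 5.97 and 8.28 TPM against 0.49 and 0.48 TPM (-4.44 ± 0.36). LHX2, which marks several progenitor populations, was one of the 3 higher in PLC/PRF/5, at 17.6 and 12.6 TPM against 0.55 and 0.80 TPM. Of 25 semaphorin, ephrin and axon guidance genes, 12 were higher in SNU475 and 4 in PLC/PRF/5; SEMA6A, a transmembrane semaphorin, gave one of the smallest p-values of the whole comparison, at 54.1 and 66.8 TPM in PLC/PRF/5 against 0.06 and 0.02 TPM (10.74 ± 0.35, adjusted p = 1.45e-08). Among 15 long noncoding RNAs studied in liver cancer, 4 were called in each direction, close to the 22.4% and 26.3% of all genes. UCA1 was at 1170 and 1133 TPM in PLC/PRF/5 against 0.69 and 0.65 TPM (10.82 ± 0.37), and LUCAT1 at 22.8 and 23.6 TPM in SNU475 against 2.33 and 2.51 TPM (-3.88 ± 0.32).

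Of 13 mitochondrially encoded mRNAs, MT-CO1 and MT-ND4L were called higher in SNU475 and none higher in PLC/PRF/5. Their calls moved with single libraries: none of the 13 was called without PLC/PRF/5 replicate 1, without PLC/PRF/5 replicate 2 or without SNU475 replicate 2, and 6 were called without SNU475 replicate 1. Their summed TPM in SNU475 replicate 1 was 0.561 times that in replicate 2, and its part in these calls was not tested.

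Markers of other liver cell types were read alongside. Each library is bulk RNA of 1 cell line, so a smaller share of cells expressing a gene and less RNA per cell cannot be told apart. Of 12 stellate cell and fibroblast markers tested, 10 were called higher in SNU475 and 1, RELN, higher in PLC/PRF/5, where it was at 221 and 240 TPM against 0.11 and 0.22 TPM (11.51 ± 0.49). The summed TPM of this list was 225 and 245 in PLC/PRF/5, nearly all of it RELN, and 1540 and 953 in SNU475, where ACTA2, COL1A1 and COL3A1 made up most; these 3 genes also stand on the mesenchymal or collagen lists. Endothelial markers summed to 0.66 and 1.30 TPM in PLC/PRF/5 and 4.83 TPM in each SNU475 library; KDR, TEK, TIE1 and ERG were at 0 in both PLC/PRF/5 libraries and at most 2.08 TPM in SNU475, and VWF and CDH5 were at most 0.17 TPM in all 4. Of the 5 endothelial markers tested, those 4 were called higher in SNU475 and PECAM1, an endothelial and platelet adhesion molecule, higher in PLC/PRF/5, at 0.66 and 1.08 TPM against 0.03 and 0.02 TPM (3.25 ± 0.94, adjusted p = 0.014). Macrophage and lymphoid markers, of which 6 were tested, gave 1 higher in PLC/PRF/5 (LYZ), 4 higher in SNU475 and 1 not called. They summed to 117 and 194 TPM in PLC/PRF/5, mainly LYZ at 91.3 and 165 TPM, and to 114 and 41.0 TPM in SNU475, mainly CD68; PTPRC, the leukocyte common antigen, was at 0 in PLC/PRF/5 and at 0.43 and 0.26 TPM in SNU475, and CD3E was at 0 in all 4. Cholangiocyte markers gave 5 of 10 higher in PLC/PRF/5 and 2 higher in SNU475, with sums of 744 and 927 TPM against 725 and 231 TPM. CFTR, the biliary chloride channel, was at 5.69 and 9.85 TPM against 0.14 and 0 TPM (6.64 ± 0.79). AQP1 and MUC1 went the other way, with log2 fold changes of -4.98 and -4.03, and KRT7, KRT19 and SPP1 were not called.

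Differences also varied along the genome. Over 12754 protein-coding genes with at least 100 counts the median log2 fold change was -0.06. It was -0.47 on chromosome 1, -0.46 on chromosome X and -0.32 on chromosome 14, and 0.49 on chromosome 3, 0.51 on chromosome 21 and 0.42 on chromosome 16. The lactate-treated libraries of the same lines gave -0.51, -0.51, -0.39, 0.39, 0.62 and 0.35 for these chromosomes in turn. Among 12038 runs of 30 neighbouring genes, whose medians lay between -0.84 and 0.80 for the central 90% of runs, the lowest was a stretch of chromosome 11 from C11orf80 to KMT5B with a median of -2.37; 28 of its 30 genes were called higher in SNU475 and none higher in PLC/PRF/5. It holds NDUFV1, a subunit of respiratory complex I, at 467 and 354 TPM in SNU475 against 92.4 and 114 TPM (-2.58 ± 0.21), CORO1B, an actin regulator (-2.43 ± 0.22), and pyruvate carboxylase. The highest was a stretch of chromosome 4 from CENPC to AREG with a median of 3.38 and 23 of 30 genes higher in PLC/PRF/5, which contains ALB, AFP, CXCL8, CXCL5, EREG, AREG and UGT2B7, all described above. These runs were picked as the extremes, and DNA copy number was not measured.

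**Figure D5:**
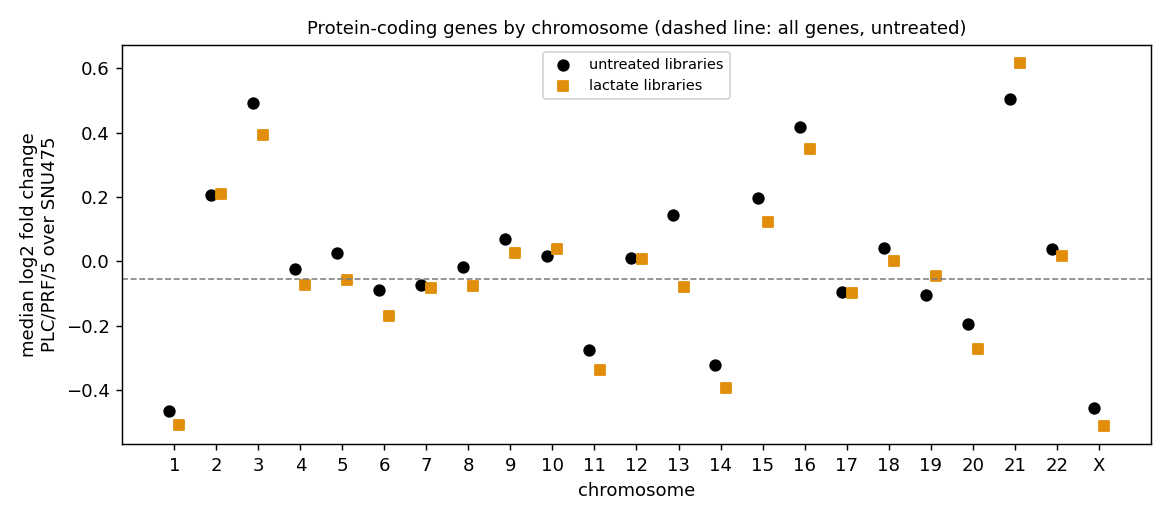
Median log2 fold change of PLC/PRF/5 over SNU475 (vertical axis) for the protein-coding genes of each chromosome (horizontal axis), in the untreated libraries (black circles) and the lactate-treated libraries (orange squares); the dashed line is the median of all genes in the untreated libraries. Chromosomes 1 and X lie near -0.5 and chromosomes 3, 16 and 21 lie above 0.3 in both.

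The lactate-treated libraries of the same lines share no library with this comparison, though the fit shares its estimate of the spread. Between them, 9307 genes were called (50.7%). Of the 8941 untreated calls, 8874 (99.3%) had the same sign there and 7452 (83.3%) were also called with it; among all 18355 genes 87.2% had the same sign. Of the 3381 calls of at least 8-fold, 3086 (91.3%) were called again with the same sign. Calls of opposite sign numbered 2: PAX8, at no more than 0.59 TPM in the untreated libraries (-2.14 and then 1.47), and CFAP73, with 1 count in PLC/PRF/5 and 19 in SNU475 before treatment. The test of the change itself, which asks whether lactate altered the difference between the lines, called no gene by edgeR (smallest adjusted p = 0.93, with 967 genes at an unadjusted p under 0.05), and none by DESeq2 or limma-voom. These fits did not pair the libraries. An added fit that paired the control and lactate libraries of the same number within each line, with 3 residual degrees of freedom, called 7 genes by edgeR, with 1867 at an unadjusted p under 0.05. The PLC/PRF/5 control numbers differ between the deposited names and the sample titles. The pairing followed the titles and may not be the true one in that line. The smallest adjusted p was that of CCN1, a matricellular protein and YAP target, at 105 and 47.3 TPM in PLC/PRF/5 and 146 and 250 TPM in SNU475 before treatment and at 56.9 and 23.4 TPM and 534 and 1233 TPM with lactate (change -3.04 ± 0.23, adjusted p = 0.00048). CCN2, TAGLN, THBS1, CLDN1 and OXTR moved in the same direction, toward SNU475, by -2.88 ± 0.31, -2.37 ± 0.26, -1.77 ± 0.23, -1.64 ± 0.24 and -1.82 ± 0.26. The other was a gene with an identifier and no symbol, higher with lactate in PLC/PRF/5 relative to SNU475.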

How the data were processed

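RNA was measured in 12 libraries of 6 groups, 2 each; 4 enter the comparison. The authors deposited 1 RSEM gene table per library, with expected counts and TPM per the file headers; STAR, RSEM, FastQC and DESeq2 are the tools listed in the submitters' processing notes, with the mouse builds GRCm38 and mm10, whereas all 62757 gene identifiers are human, so the authors' human build is not given in the sources used here and no coordinates of theirs are printed. After 47 duplicate identifiers were merged, 62710 genes remained. Expected counts were rounded, and 18355 genes passed filterByExpr by group. All 12 libraries were fitted by edgeR 4.0.16 (glmQLFit, glmQLFTest; R 4.3.3) with TMM factors of 0.794 to 1.165, the 6 groups as the design and 6 residual degrees of freedom; the contrast compares the untreated groups. HLF and lactate libraries therefore share in the estimate of the spread. Calls have a Benjamini-Hochberg adjusted p under 0.05 over all genes tested. DESeq2 1.42.0 and limma 3.58.1 served as alternatives, as did other scalings, filters, sample sets and leaving out each control library. The fit was also run on simulated counts with known changes, and the outcome is not given here.

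The members and lists were chosen with earlier results of these data known. Genes were named by a rule: in each direction the 12 protein-coding calls of at least 8-fold with the highest mean TPM and more than 10 CPM in both libraries, up to 4 called members per list with the smallest p, and a set of liver, epithelial, mesenchymal and glycolytic genes. Other list members, the chromosome runs, promoters and gene families shown were chosen after their values were seen. Intervals and floors are 95% and 3 counts, and cover counting error only. The depth of 16533437 to 22187849 counts per library limits genes near 0. No library or gene was imputed. A few genes on the lists are counted but not reported here by name.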

Additional observations from a re-analysis of the deposited data

How the results depend on the processing

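Every number of calls below is by the same rule as in the report. Upper-quartile and RLE factors, DESeq2, limma-voom, other filters, other sample sets, an offset for effective length and removal of mitochondrially encoded genes left 8032 to 9294 genes called, against 8941, and 43.7% to 47.8% of calls higher in PLC/PRF/5. The replicate block gave 8938 genes (4149 and 4789) in the fit of 12 libraries and 8032 (3808 and 4224) in the fit of 4. Replicate numbers follow the sample titles, from which the deposited names of the PLC/PRF/5 controls differ. Deviations of same-numbered control libraries of the 2 lines correlated at -0.051 across genes; those of same-numbered control and lactate libraries of 1 line correlated at 0.446 in SNU475, 0.132 in PLC/PRF/5 and 0.101 in HLF. With a replicate block within each line, the change with lactate was called for 7 genes, against 0 unpaired. A glmTreat test against a 2-fold change called 4696 genes, 1995 higher in PLC/PRF/5 (42.5%) and 2701 higher in SNU475. Leaving out 1 library left 6036 to 7688 genes called and 3178 to 4235 higher in SNU475, the fewest without PLC/PRF/5 replicate 2.

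The scalings below were added after the data were seen, as was the use of every alternative on the gene lists. Library totals alone gave 5119 genes higher in PLC/PRF/5 and 3722 higher in SNU475. Limma on log2(TPM + 1) gave 2832 higher in SNU475, and 888 calls of at least 8-fold against 3381, on a scale that compresses low genes. It also lowered the SNU475 counts of interferon-stimulated genes to 11 and of cell cycle inhibitors and cyclins to 5. Endothelial markers fell to 2 and macrophage and lymphoid markers to 2. The cause of these moves was not tested.

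Replication and mitosis genes higher in PLC/PRF/5 (3) numbered 6 with DESeq2, 6 with limma-voom, 5 without a filter, 6 with at least 1 CPM, 7 in the 4 control libraries, 5 with the length offset, 6 without mitochondrial genes, 0 with glmTreat, 8 on library totals, 10 on TPM and 1 to 3 without 1 library (1 without PLC/PRF/5 replicate 1). Mitochondrially encoded mRNAs higher in SNU475 (2) numbered 1 with limma-voom, 9 without a filter, 1 with either replicate block, 1 with the length offset, 0 with glmTreat, 0 on library totals, 0 on TPM and 0 to 6 without 1 library; with those genes removed the number is 0 by construction. P450 and conjugation genes higher in PLC/PRF/5 (8) fell to 5 with DESeq2 and to 5 to 8 without 1 library. Bile acid genes (8) fell to 5 with at least 1 CPM, and lactate and pyruvate genes (8) to 5 in the 8 libraries of both lines, 2 with glmTreat and 3 to 6 without 1 library. With glmTreat, cell cycle inhibitors and cyclins higher in SNU475 fell from 11 to 7 and sterol and fatty acid genes higher in PLC/PRF/5 from 16 to 9.

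Over the named genes and all alternatives, 3297 values kept direction and call, 50 lost the call, 4 gained it and 4 changed sign. KRT19 changed sign on library totals (0.152), on TPM (0.538) and among the fits without 1 library (-0.543 to 0.551, positive without SNU475 replicate 1), and PKM on TPM (0.147). DESeq2 did not call APOA1 (adjusted p = 0.148) or ERG (0.142), whose counts are 0 in 1 line. Depth limits genes near 0 counts, whose ratios have wide intervals.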

Other observations

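Several gene families outside the lists above are given here as values with no test of the family, since they were picked after their values were seen; of all genes, 22.4% were called higher in PLC/PRF/5 and 26.3% higher in SNU475. Clustered protocadherins, cell surface adhesion proteins best known from neurons, were higher in SNU475: 8 of 13 PCDHB genes and 18 of 32 PCDHA and PCDHG genes tested were called higher there and none higher in PLC/PRF/5, with median log2 fold changes of -4.21 and -3.16. The PCDHA and PCDHG genes share exons, so their reads can be split between copies, and the cluster lies in a run of 30 neighbouring genes on chromosome 5, from SLC35A4 to PCDH1, with a median of -2.30. Glutamate receptor genes, which carry excitatory signals in neurons, were higher in SNU475 in 7 of 9 cases and in PLC/PRF/5 in none (median -5.09). Of 6 GABA-A receptor genes, 2 were higher in SNU475 and 4 were not called (median -0.23). Solute carriers, the large family of membrane transporters, were called higher in PLC/PRF/5 in 102 of 292 cases and higher in SNU475 in 73 (median 0.24).

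Carcinoembryonic antigen genes, which code for adhesion proteins of gut epithelium, were higher in PLC/PRF/5 in 3 of 6 cases and in SNU475 in 1. CEACAM6 was at 134 and 139 TPM in PLC/PRF/5 and 0 and 0.04 TPM in SNU475, and CEACAM5 at 17.2 and 12.9 TPM with no SNU475 count, at least 354-fold higher. MAGEA4 and MAGEC2, cancer-testis genes silent in most adult tissues, are 2 genes picked by their values. MAGEA4 was at 476 and 544 TPM in PLC/PRF/5 with no SNU475 count, at least 5937-fold higher, and MAGEC2 at 38.5 and 88.8 TPM in SNU475 against 0.47 and 0.39 TPM (log2 fold change -7.82 ± 0.79). These families hold near-identical copies, so the value of a single member is uncertain.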
